A study of Arabidopsis thaliana with 24 samples.

Results

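Roots of Arabidopsis thaliana seedlings kept for 48 h on brassinolide together with L-kynurenine were compared with roots kept for 48 h on mock medium. These are 4 of the 24 RNA-seq libraries of the study, 2 with both compounds and 2 mock, chosen by treatment and time alone. All plants were Col-0 wild type without a transgene named in the labels, and every group shared the same start: germination for 3 days on reduced-strength Murashige and Skoog medium with sucrose, then transfer. The groups used here were 0.8 nM brassinolide with 4 µM L-kynurenine for 12, 24 and 48 h (BL+Kyn), 4 µM L-kynurenine alone for 48 h (Kyn), 0.8 nM brassinolide alone for 48 h (BL), and mock for 12, 24 and 48 h, with 2 libraries in each group. RNA came from roots cut near the tip, and the libraries were made by CEL-Seq2, which reads the 3′ ends of transcripts. The series describes its replicates as biological, but nothing in the labels says that they came from separate plates or days.

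Brassinolide is the most active brassinosteroid, a steroid hormone that binds the receptor kinase BRI1 at the cell surface, switches off the kinase BIN2 and lets the transcription factors BZR1 and BES1 act on genes of growth and of the cell wall. L-kynurenine blocks TAA1 and its relatives, the aminotransferases that turn tryptophan into indole-3-pyruvate, which YUCCA enzymes convert to the auxin indole-3-acetic acid. Auxin acts by removing Aux/IAA repressors, and many Aux/IAA and GH3 genes are themselves switched on by it, so their transcripts are widely used as readouts of auxin response. In the root tip auxin sustains the meristem through PLETHORA factors, and further up it drives the outgrowth of root hairs.

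The BL+Kyn libraries held 11098428 and 8568834 reads, against 21365812 and 10472056 in the mock libraries, within a range of 6322167 to 31365110 over the series. Values are the authors' normalised counts, which were whole reads times a factor for each library. Of 40246 listed features, 18948 averaged at least 5 normalised counts over the 24 libraries and were tested with limma, on log2(normalised count + 1), in a fit over all 24 libraries. Fold changes are on that log2 scale, which understates the change of low genes, and p-values are adjusted by Benjamini-Hochberg over all genes tested. Markers of root tissue were present: all 10 members of the Casparian strip list and all 13 of the suberin list, both markers of the endodermis, had reads in all 4 libraries. Transcripts of 15 photosynthesis genes, markers of green tissue, took 0.0623% and 0.0469% of the normalised counts in BL+Kyn roots, against 0.0209% and 0.0466% in mock roots. No photosynthesis gene passed the test, and their part in the results was not tested.

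The replicates of BL+Kyn at 48 h stood further apart than any other pair in the series. Over 13240 genes with a mean of at least 50, the standard deviation of the log2 difference between replicates was 0.592 in BL+Kyn roots at 48 h, against 0.309 in mock roots at 48 h. It lay between 0.284 and 0.5 in the pairs other than BL+Kyn at 48 h. Of these genes 1070, or 8.08%, differed by more than 2-fold between the BL+Kyn replicates, against 156, or 1.18%, between the mock replicates. Among 1825 genes called higher in BL+Kyn roots than in mock roots at 24 h, a contrast of 24 h libraries whose error estimate also draws on the 48 h libraries, the median at 48 h was 0.97 above the mock mean in replicate 1 and 0.56 in replicate 2. The 1632 genes called lower at 24 h had medians of -0.93 in replicate 1 and -0.40 in replicate 2. Replicate 1 thus lay further from mock than replicate 2 for genes that the treatment had already moved a day earlier. Of the first set, 3.34% in replicate 1 and 9.86% in replicate 2 lay below the mock mean.

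**Figure D1:**
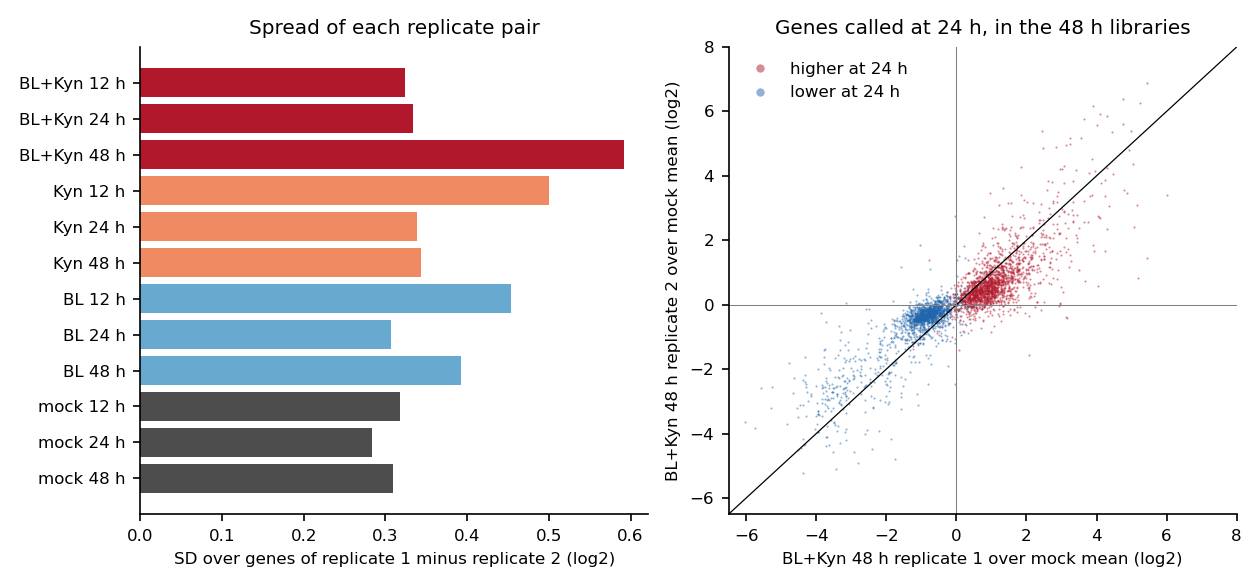
Left, standard deviation over genes of the log2 difference between the replicates of each of the 12 groups (13240 genes); the bar of BL+Kyn at 48 h reaches 0.592 and the next highest 0.5. Right, each gene called at 24 h by its log2 level over the mock mean in BL+Kyn replicate 1 (x axis) and replicate 2 (y axis) at 48 h. Most points share their sign, and the higher genes have medians of 0.97 in replicate 1 and 0.56 in replicate 2.

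Some genes were far higher in one BL+Kyn replicate than in the other. They were taken only from genes whose mock libraries differed by less than 0.5 on the log2 scale. Close mock values were thus fixed by the choice. AT1G65970, a thioredoxin-dependent peroxidase, had 3794 and 251 normalised counts in BL+Kyn roots, against 134 and 96.2 in mock roots. CHX17, a cation/proton exchanger, had 676 and 86.0 in BL+Kyn roots, against 85.8 and 89.4 in mock roots, so that its second replicate lay at the mock level. IGMT1, an indole glucosinolate methyltransferase, had 407 and 33.3 in BL+Kyn roots, against 51.8 and 38.5 in mock roots. NIA1, a nitrate reductase, lay below mock in replicate 1 and above it in replicate 2, with 71.3 and 921 in BL+Kyn roots, against 163 and 225 in mock roots. The calmodulin-like CML41 lay above mock in both replicates and furthest in replicate 2, with 42.1 and 330.1 in BL+Kyn roots, against 8.35 and 5.66 in mock roots. FACT and GPAT6, acyltransferases of the cutin and suberin family of polymers, were also highest in replicate 2: FACT had 42.1 and 297 in BL+Kyn roots, against 30.1 and 22.6 in mock roots. DGR1, a wall protein of unknown function, was low only in replicate 1, with 311 and 1710 in BL+Kyn roots, against 2017 and 1709.6 in mock roots, and its call (adjusted p = 0.0312 in limma) ended without BL+Kyn replicate 1 (adjusted p = 0.774), mock replicate 1 (0.153) or mock replicate 2 (0.0828). Without BL+Kyn replicate 1 its log2 difference was -0.12. The call of the peroxidase AT1G65970 ended without BL+Kyn replicate 1 (adjusted p = 0.114), and that of FACT without BL+Kyn replicate 2 (adjusted p = 0.519), mock replicate 1 (0.115) or mock replicate 2 (0.191). CHX17, IGMT1 and NIA1 were not called against mock (adjusted p = 0.086, 0.148 and 0.784).

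Against mock, BL+Kyn roots at 48 h had 2305 genes higher and 2130 lower (adjusted p below 0.05 in limma), which is 23.4% of all genes tested, 12.2% higher and 11.2% lower. Both BL+Kyn libraries lay above both mock libraries in 29.3% of all genes tested and below both in 28.1%. The number called was 2222 without BL+Kyn replicate 1 and 5848 without BL+Kyn replicate 2, and 2331 and 2698 without mock replicate 1 and mock replicate 2. Centring every library on its median gene moved the split to 1899 higher and 2829 lower, 40.2% higher in place of 52.0%. In the authors' deposited table of this comparison, 4689 genes had an adjusted p below 0.05, and 88.3% of them were also called here in the same direction.

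Among the 12 largest rises were genes known from defence, peroxidases and enzymes of detoxification. AZI1 (AT4G12470), a lipid-transfer-like protein of systemic resistance, had 15959.7 and 10507 normalised counts in BL+Kyn roots, against 183 and 203 in mock roots (log2 difference 6.06 ± 0.82 SE, adjusted p = 4.79e-05 in limma). Its neighbour EARLI1 followed with 536 and 1663 in BL+Kyn roots, against 22.8 and 28.3 in mock roots (log2 5.16). FMO1, the enzyme that makes the immune signal N-hydroxypipecolate, had 154 and 205 in BL+Kyn roots, against 4.46 and 3.39 in mock roots (log2 5.19 ± 0.89). The 12 largest rises and falls were taken only from called genes whose groups did not overlap, so that separation was fixed by the choice. The peroxidase PA2 had 77.7 and 212 in BL+Kyn roots, against 2.23 and 0 in mock roots, and PRX52, a peroxidase linked to lignin, had 99.3 and 621 in BL+Kyn roots, against 3.34 and 6.79 in mock roots. The cytochrome P450 genes CYP706A2 and CYP706A1 rose by 5.75 and 5.19 on the log2 scale, and the glutathione transferase GSTF6 had 650 and 1030.4 in BL+Kyn roots, against 56.8 and 33.9 in mock roots (log2 4.19). WRKY28, a transcription factor of the salicylate pathway, had 66.9 and 49.9 in BL+Kyn roots, against 1.11 and 3.39 in mock roots (log2 4.27 ± 0.53). TH8, a thioredoxin, was counted in 77 reads over both BL+Kyn libraries, against 3 reads over both mock libraries, a ratio of 41.7 after scaling (95% counting interval 13.8 to 207). MYB15, a transcription factor of lignin and cold responses, gave 62 reads in BL+Kyn roots and 2 in mock roots, a ratio of 50.4 (13.4 to 426). PP2-B14, an F-box gene, had 32.4 and 101 in BL+Kyn roots, against 2.78 and 1.13 in mock roots. The call of PRX52 ended without BL+Kyn replicate 2 (adjusted p = 0.057) or mock replicate 1 (0.0597), and that of MYB15 without BL+Kyn replicate 2 (adjusted p = 0.116), mock replicate 1 (0.103) or mock replicate 2 (0.0659). That of PP2-B14 ended without each of the 4 libraries in turn (adjusted p = 0.0598 to 0.147). AZI1 and EARLI1, CYP706A1 and CYP706A2, and the members of the xyloglucan enzyme and aquaporin families below have close copies in the genome, so reads may have been split among them. Overlapping or antisense transcripts cannot be told apart because strand is not stated.

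The 12 largest falls held XTH26 and XTH13 of the root hair list and IAA31 of the Aux/IAA list, besides 9 genes in none of the lists. EXT6, an extensin of the cell wall, had 1534 and 2248 normalised counts in BL+Kyn roots, against 23948 and 25226 in mock roots (log2 difference -3.73 ± 0.37 SE, adjusted p = 2.02e-06 in limma). FLA6, a fasciclin-like arabinogalactan protein, had 25.9 and 15.3 in BL+Kyn roots, against 394 and 282 in mock roots (adjusted p = 8.43e-07 in limma). RHS14, named for its hair-specific transcript, had 21.6 and 30.5 in BL+Kyn roots, against 327 and 351 in mock roots (log2 -3.67). RHS6 gave 2 reads over both BL+Kyn libraries and 113 over both mock libraries, a BL+Kyn to mock ratio of 0.0288 (95% counting interval 0.00344 to 0.106). XTH26 (log2 -3.95) and XTH13 (log2 -3.74), xyloglucan enzymes in the root hair list, and the protein kinase AGC1.7 (log2 -3.84) fell as well. OFP11, an ovate-family factor, had 0 and 6.93 in BL+Kyn roots, against 51.8 and 43.0 in mock roots, and SULTR1;1, a root sulfate transporter, had 4.32 and 6.93 in BL+Kyn roots, against 72.4 and 92.8 in mock roots (log2 -3.68 ± 0.46). The cytochrome P450 gene CYP71A19 had 0 and 9.71 in BL+Kyn roots, against 79.1 and 52.0 in mock roots, and CYP94D1 gave 3 reads in BL+Kyn roots and 139 in mock roots, a ratio of 0.0351 (0.00715 to 0.105). The call of CYP71A19 ended without BL+Kyn replicate 1 (adjusted p = 0.158) or mock replicate 1 (0.063), and that of CYP94D1 without mock replicate 1 (adjusted p = 0.0505). The Aux/IAA gene IAA31 completed the falls and is described with its family below.

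**Figure D2:**
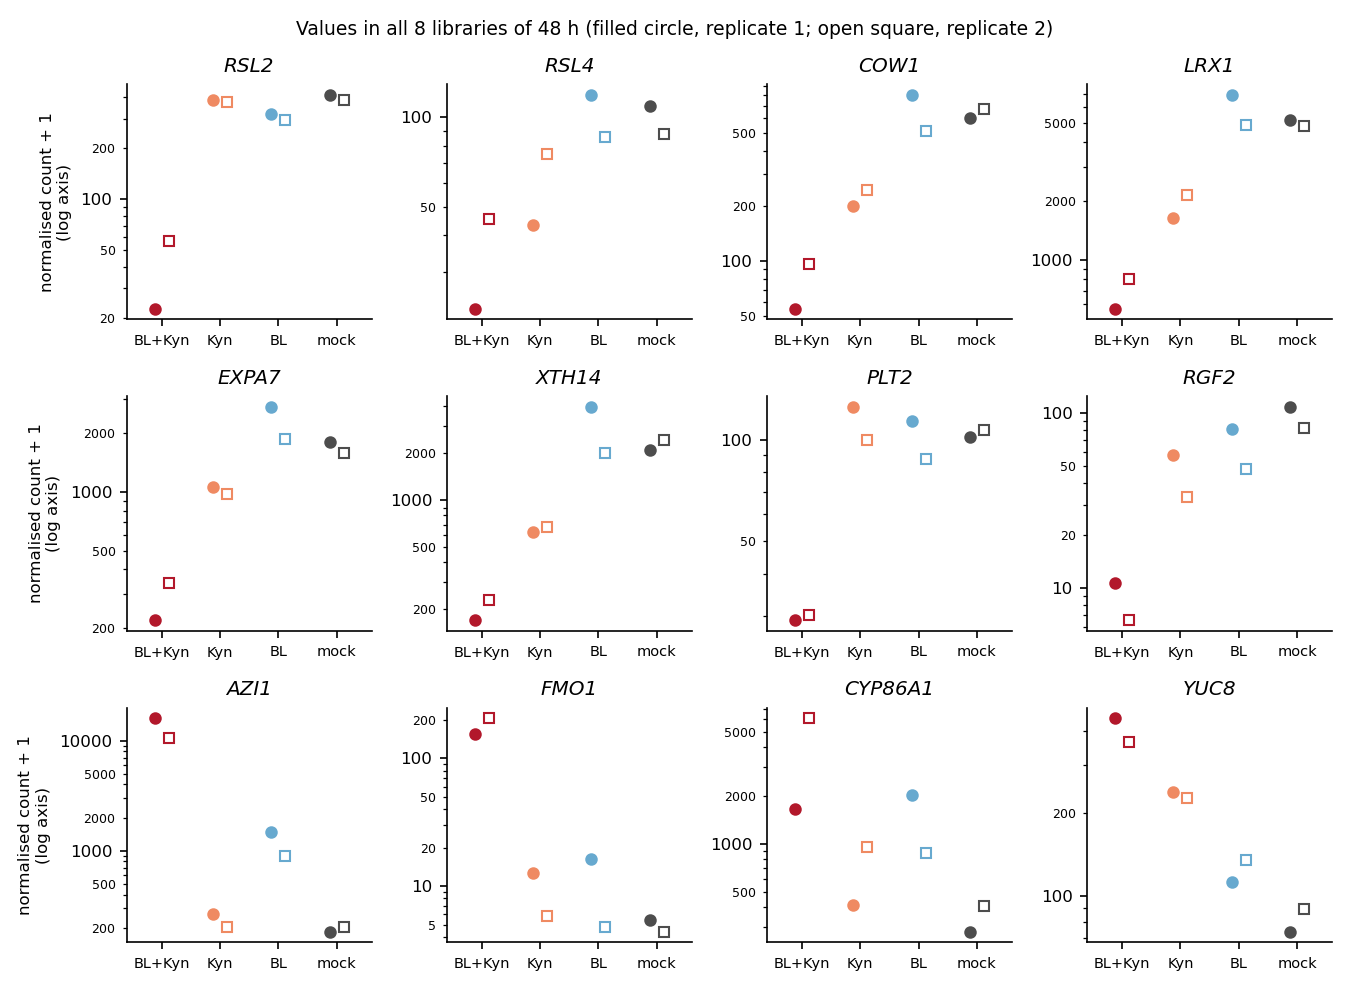
Normalised count + 1 (log axis) of 12 genes in the 8 libraries of 48 h, with the groups in the order BL+Kyn, Kyn, BL and mock and each point 1 library. RSL2 lies at 21.6 and 55.5 in BL+Kyn roots and between 292 and 412 in the Kyn, BL and mock roots, while AZI1 lies at 15959.7 and 10507 in BL+Kyn roots, against 183 and 203 in mock roots. Filled circles are replicate 1 and open squares replicate 2.

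Root hair growth genes fell together, including late regulators of the hair. Of 17 listed genes of root hair growth 16 were tested, and 14 were lower and 0 higher, where 11.2% of all genes tested were lower. The list's median log2 difference was -3.11, and that of all genes tested 0.01. The list's summed share of normalised counts was 0.0424% and 0.0648% in BL+Kyn roots, against 0.458% and 0.444% in mock roots. The median was -3.41 in BL+Kyn replicate 1 and -2.77 in replicate 2, and all 14 calls were kept without each of the 4 libraries in turn. In RNA from many cells, fewer hair cells and less of these transcripts per cell cannot be told apart, here and for the other cell types below.

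RSL2 (AT4G33880; chromosome 4, 16239363 to 16241137), a basic helix-loop-helix factor that drives hair elongation, had 21.6 and 55.5 normalised counts in BL+Kyn roots, against 412 and 384 in mock roots (log2 difference -3.48 ± 0.30 SE, adjusted p = 6.03e-07 in limma). RSL4, the related factor that sets final hair length, had 21.6 and 44.4 in BL+Kyn roots, against 109 and 87.1 in mock roots (log2 -1.62 ± 0.33, adjusted p = 0.00175). RHD6, which acts before both, was not called, with 62.6 and 88.8 in BL+Kyn roots, against 130.3 and 88.2 in mock roots (log2 -0.52, adjusted p = 0.0835). Among wall genes, PRP3 had 1914 and 3197 in BL+Kyn roots, against 25164 and 23750.5 in mock roots (log2 -3.30). LRX1, a leucine-rich repeat extensin, had 567 and 799 in BL+Kyn roots, against 5145 and 4829 in mock roots (log2 -2.89). EXPA7, a hair expansin that loosens walls, had 218 and 338 in BL+Kyn roots, against 1809.7 and 1587 in mock roots (log2 -2.64). In every one of these called genes replicate 2 of BL+Kyn lay above replicate 1. Both lay below both mock libraries, as in 2122 of the 2130 genes called lower. COW1, a phosphatidylinositol transfer protein of tip growth, had 53.99 and 95.69 in BL+Kyn roots, against 602.66 and 670.96 in mock roots, and ADF8, an actin depolymerising factor, had 158 and 277 in BL+Kyn roots, against 1357 and 1500.3 in mock roots. The NADPH oxidase gene RHD2, whose product acts at the growing hair tip, was not called (log2 -0.37, adjusted p = 0.246). None of the 10 genes that pattern hair and non-hair files passed the test, among them WER (146 and 135 in BL+Kyn roots, against 116 and 129 in mock roots) and GL2 (162 and 165 in BL+Kyn roots, against 216 and 203 in mock roots).

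**Figure D3:**
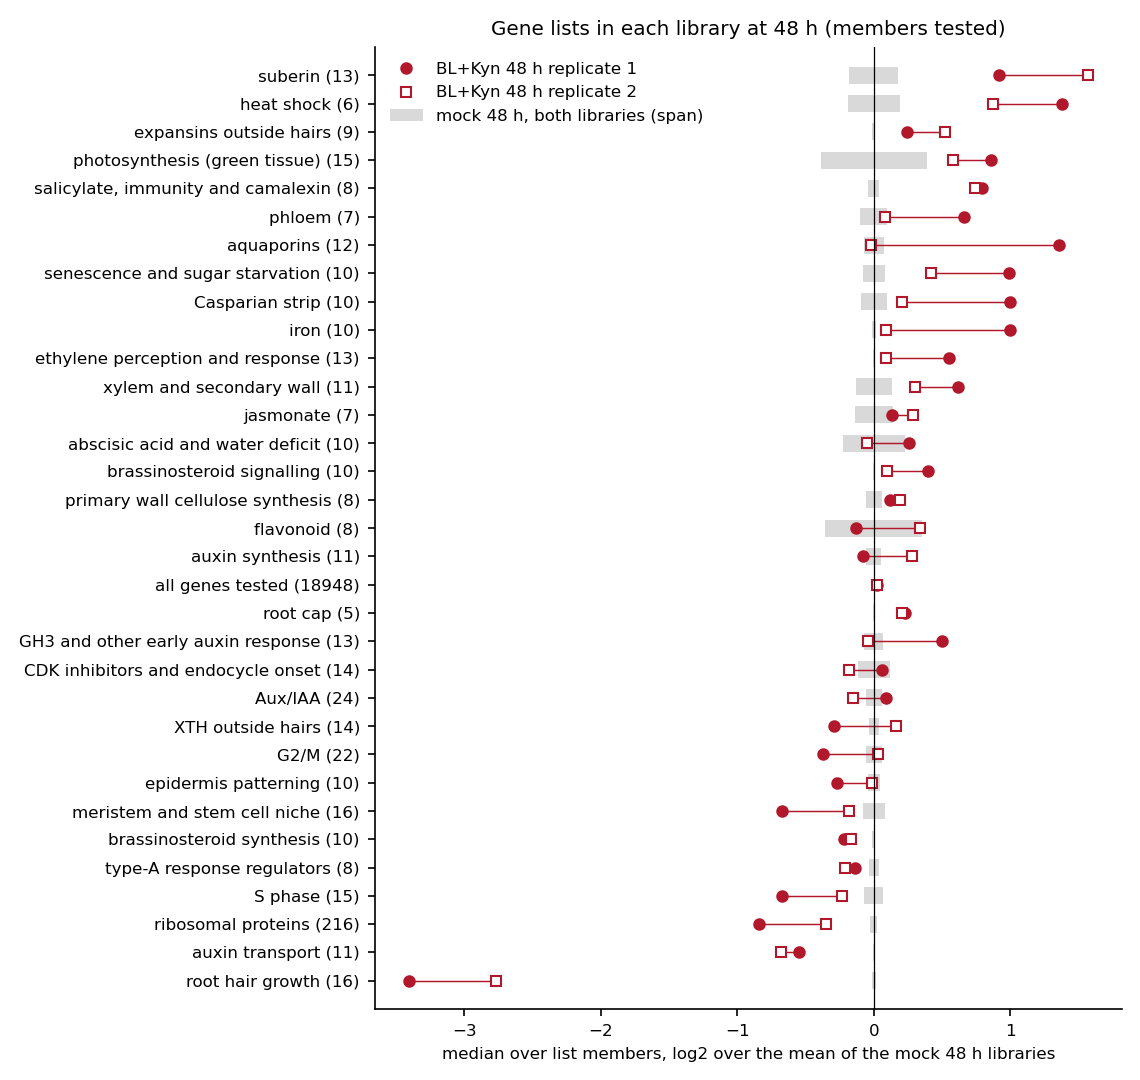
Median log2 level over the mock mean of each of 32 gene lists and of all genes, in BL+Kyn replicate 1 (filled circles) and replicate 2 (open squares) at 48 h, with a grey span between the mock libraries. The root hair list lies at -3.41 and -2.77, the ribosomal protein list at -0.84 and -0.35, and all genes at 0.02 and 0.02.

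Genes of both enzymatic steps of auxin synthesis changed, in opposite directions. In the list 27.3% of tested genes were higher and 9.1% lower, against 12.2% higher and 11.2% lower among all genes tested. TAA1, whose product is the target of L-kynurenine, had 17.3 and 16.6 normalised counts in BL+Kyn roots, against 59.0 and 62.2 in mock roots (log2 difference -1.78 ± 0.26 SE, adjusted p = 0.000125 in limma). YUC8, which encodes an enzyme of the second step, had 444 and 363 in BL+Kyn roots, against 73.0 and 88.2 in mock roots (log2 2.31 ± 0.17, adjusted p = 3.87e-07). YUC3 and YUC9 were higher by 0.90 and 2.02, and the YUC3 call ended without BL+Kyn replicate 1 (adjusted p = 0.11) or mock replicate 2 (0.166), the YUC9 call without BL+Kyn replicate 2 (adjusted p = 0.259) or mock replicate 2 (0.207). Of 12 listed genes 11 were tested, 3 were higher and 1 lower, with 1 higher without mock replicate 2, and none of the 4 genes of tryptophan synthesis in the list was called.

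Among auxin carriers more genes were lower than higher. Of 12 listed carriers 11 were tested, 6 (54.5%) were lower and 1 (9.1%) higher, with a median log2 difference of -0.62. Among all genes tested 11.2% were lower and 12.2% higher. PIN3, an efflux carrier, had 284 and 291 normalised counts in BL+Kyn roots, against 549 and 444 in mock roots (log2 -0.78, adjusted p = 0.000564 in limma). The influx carriers LAX3 and LAX2 fell by 0.97 and 1.07, the LAX3 counts being 326 and 315 in BL+Kyn roots, against 649 and 609 in mock roots. ABCB19, an ABC transporter of auxin, had 554 and 469 in BL+Kyn roots, against 856 and 767 in mock roots (log2 -0.67). PIN2 (EIR1), which carries auxin away from the tip through the epidermis, was slightly lower, with 5901 and 7181 in BL+Kyn roots, against 8125 and 8350.2 in mock roots (log2 -0.34, adjusted p = 0.0476). The PIN2 call ended without BL+Kyn replicate 1 (adjusted p = 0.363), mock replicate 1 (0.133) or mock replicate 2 (0.179), and that of PIN4 (log2 -1.07) without BL+Kyn replicate 1 (adjusted p = 0.101) or mock replicate 2 (0.0535). ABCB1, the member called higher (log2 0.35), lost its call without BL+Kyn replicate 2 (adjusted p = 0.195), mock replicate 1 (0.151) or mock replicate 2 (0.139), and 0 carriers were higher under TMM scaling or median centring.

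Aux/IAA genes were called in both directions. Of 28 listed genes 24 were tested, and 5 (20.8%) were lower and 3 (12.5%) higher, against 11.2% lower and 12.2% higher among all genes tested. The median log2 difference was -0.10, and 3 were lower without mock replicate 1 or mock replicate 2. IAA31 (AT3G17600) had 11.9 and 11.1 normalised counts in BL+Kyn roots, against 157 and 171 in mock roots (log2 -3.72 ± 0.34 SE, adjusted p = 8.43e-07 in limma). IAA19, an auxin-induced member, had 20.5 and 19.4 in BL+Kyn roots, against 79.1 and 69.0 in mock roots (log2 -1.84 ± 0.30). IAA11 had 132 and 132 in BL+Kyn roots, against 294 and 267 in mock roots (log2 -1.08). IAA28, a repressor of lateral root formation, was on the higher side with 4810.3 and 4072 in BL+Kyn roots, against 2403 and 3014 in mock roots (log2 0.72), as was IAA17 (AXR3) with 2288 and 2519 in BL+Kyn roots, against 1759 and 1615 in mock roots (log2 0.51). The BL+Kyn replicates lay close together in these 5 genes. Their groups did not overlap, as in 2295 of 2305 genes called higher and 2122 of 2130 called lower. IAA1, IAA30 and IAA27 (PAP2) were also called, at log2 differences of -1.19, -1.83 and 1.36. The IAA1 call ended without BL+Kyn replicate 1 (adjusted p = 0.317), mock replicate 1 (0.122) or mock replicate 2 (0.104), that of IAA30 without BL+Kyn replicate 2 (adjusted p = 0.211), mock replicate 1 (0.152) or mock replicate 2 (0.0579), and that of IAA27 without BL+Kyn replicate 1 (adjusted p = 0.148) or mock replicate 1 (0.253). The promoters of 20.8% of the 24 tested genes held TGTCTC and 20.8% held TGTCGG, letters bound by auxin response factors, on either strand of the 250 bases before the start, against 10.6% and 4.66% of all genes with a promoter in RefSeq.

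Of 16 early auxin-response genes outside the Aux/IAA family 13 were tested, 4 were lower and 0 higher, with 2 lower without mock replicate 1. The share lower was 30.8%, where 11.2% of all genes tested were lower and 12.2% higher. GH3.5 (WES1), an enzyme that conjugates auxin to amino acids, had 43.2 and 30.5 normalised counts in BL+Kyn roots, against 150.4 and 178 in mock roots (log2 -2.14 ± 0.23 SE, adjusted p = 4.21e-06 in limma). HAT2, a homeodomain-leucine zipper factor, had 978 and 1254 in BL+Kyn roots, against 2363 and 2219.9 in mock roots (log2 -1.05). GATA23 and PUCHI, factors of lateral root founder cells and primordia, had few counts: GATA23 had 2.16 and 4.16 in BL+Kyn roots, against 28.4 and 22.6 in mock roots. The GATA23 call ended without BL+Kyn replicate 1 (adjusted p = 0.0847) or mock replicate 1 (0.0686), and the PUCHI call (log2 -2.12) without BL+Kyn replicate 1 (adjusted p = 0.358), mock replicate 1 (0.0629) or mock replicate 2 (0.182). GH3.3, another conjugating enzyme, was not called at 34.5 and 5.55 in BL+Kyn roots, against 18.9 and 18.1 in mock roots, and its replicates lay on opposite sides of mock.

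Brassinosteroid synthesis genes moved both ways, and no signalling gene passed the test in limma. Of 10 synthesis genes 3 (30%) were lower and 2 (20%) higher, against 11.2% lower and 12.2% higher among all genes tested. BR6OX2, the oxidase that makes brassinolide itself, had 46.4 and 59.6 normalised counts in BL+Kyn roots, against 96.4 and 126 in mock roots (log2 -1.05 ± 0.23 SE, adjusted p = 0.00299 in limma). CPD, an early P450 of the pathway known for feedback repression, had 472 and 265 in BL+Kyn roots, against 559 and 570.3 in mock roots (log2 -0.67, adjusted p = 0.0161). DWF4, the other enzyme known for such feedback, was not called at 95.0 and 56.9 in BL+Kyn roots, against 89.7 and 95.0 in mock roots. On the higher side, CYP90D1 had 111 and 59.6 in BL+Kyn roots, against 18.9 and 19.2 in mock roots (log2 2.04). Its relative ROT3 had 757 and 602 in BL+Kyn roots, against 368 and 413 in mock roots (log2 0.79). CPD lost its call without BL+Kyn replicate 2 (adjusted p = 0.25), mock replicate 1 (0.0718) or mock replicate 2 (0.079), and BR6OX1 (log2 -1.85) without BL+Kyn replicate 1 (adjusted p = 0.0707). Of 11 signalling genes 10 were tested and 0 called in limma, while edgeR called 1 higher and DESeq2 2 higher. The receptor gene BRI1 had 302 and 458 in BL+Kyn roots, against 491 and 389 in mock roots. Without BL+Kyn replicate 2, 4 signalling genes were called higher and 1 lower. Among other hormone lists, the cytokinin response regulator ARR3 had 275 and 426 in BL+Kyn roots, against 1357 and 1226 in mock roots (log2 -1.91). Of its type 2 of 8 tested regulators (25%) were lower and 0 higher, where 11.2% of all genes tested were lower. The ethylene receptor gene ETR1 had 393 and 398 in BL+Kyn roots, against 268 and 239.9 in mock roots (log2 0.64). In its list 23.1% of tested genes were higher, against 12.2% of all genes tested. Leaving out BL+Kyn replicate 2 raised the number of calls over all genes tested as well as in these lists. In the ethylene list 3 of 13 were higher and 0 lower, and 6 were higher without BL+Kyn replicate 2. The call of EIN3 (log2 0.47) ended without BL+Kyn replicate 1 (adjusted p = 0.316), mock replicate 1 (0.0575) or mock replicate 2 (0.109).

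Some regulators of the root meristem fell. In their list 25% of tested genes were lower and 0 higher, against 11.2% lower and 12.2% higher among all genes tested. Of 17 listed genes 16 were tested, and 4 were lower and 0 higher, with all 4 calls kept without each of the 4 libraries. PLT2 (AT1G51190; chromosome 1, 18977284 to 18980618), a PLETHORA factor that maintains stem cells and division, had 28.1 and 29.1 normalised counts in BL+Kyn roots, against 101 and 106 in mock roots (log2 difference -1.82 ± 0.26 SE, adjusted p = 9.71e-05 in limma). PLT1, its close relative, had 32.4 and 83.2 in BL+Kyn roots, against 88.0 and 96.2 in mock roots and missed the threshold (log2 -0.81, adjusted p = 0.0656). RGF2 and RGF3, peptides that keep PLETHORA protein high, followed: RGF2 had 9.72 and 5.55 in BL+Kyn roots, against 108 and 81.5 in mock roots (log2 -3.50 ± 0.47). RGF3 had 37.8 and 41.6 in BL+Kyn roots, against 165 and 200.3 in mock roots (log2 -2.17 ± 0.30). MGP, a zinc-finger partner of SHORT-ROOT, had 47.5 and 44.4 in BL+Kyn roots, against 85.2 and 104 in mock roots (log2 -1.02). The radial patterning genes SHR and SCR were not called: SHR had 397 and 454 in BL+Kyn roots, against 531 and 501 in mock roots, and SCR had 172 and 164 in BL+Kyn roots, against 202 and 167 in mock roots.

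Of 15 tested S-phase genes 2 (13.3%) were lower and 0 higher (median log2 -0.43), and of 22 G2/M genes 2 (9.1%) were lower and 0 higher (median -0.18). Among all genes tested 11.2% were lower, a share close to both. PCNA1, the sliding clamp of DNA replication, had 1427 and 1702 normalised counts in BL+Kyn roots, against 2751 and 2314 in mock roots (log2 -0.69 ± 0.12 SE, adjusted p = 0.000611 in limma). The mitotic cyclin CYCB1;1 had 25.9 and 48.5 in BL+Kyn roots, against 68.0 and 69.0 in mock roots (log2 -0.93, adjusted p = 0.0411). The kinase CDKB1;2 had 39.95 and 36.06 in BL+Kyn roots, against 75.75 and 75.81 in mock roots (log2 -0.98). The CYCB1;1 call ended without BL+Kyn replicate 1 (adjusted p = 0.427), mock replicate 1 (0.136) or mock replicate 2 (0.141), and that of CDKB1;2 without each of the 4 libraries in turn (adjusted p = 0.0835 to 0.114). TSO2, a ribonucleotide reductase subunit (log2 -0.37), lost its call without BL+Kyn replicate 1 (adjusted p = 0.203), mock replicate 1 (0.114) or mock replicate 2 (0.0729). Without BL+Kyn replicate 2, 7 S-phase and 3 G2/M genes were lower, and without each of the other libraries in turn 1 S-phase and 0 G2/M genes were. Of 14 genes of the exit to endocycles 2 were higher and 2 lower, or 14.3% each (median log2 -0.08). Among all genes tested 12.2% were higher and 11.2% lower, shares close to these. FZR2 (CCS52A1, an activator of the anaphase-promoting complex) had 1813 and 1875 in BL+Kyn roots, against 3289.6 and 3446 in mock roots (log2 -0.87). The CDK inhibitor LGO had 220.3 and 354 in BL+Kyn roots, against 769.8 and 665 in mock roots (log2 -1.36). The inhibitor KRP6 was higher, with 145 and 136 in BL+Kyn roots, against 73.0 and 61.1 in mock roots (log2 1.06), and ICK1 was higher by 1.71, a call that ended without BL+Kyn replicate 1 (adjusted p = 0.142) or mock replicate 2 (0.0768).

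Ribosomal protein transcripts fell broadly. Of 234 genes with a ribosomal protein annotation 216 were tested, and 161 (74.5%) were lower and 4 higher, with a median log2 difference of -0.59; of all genes tested 11.2% were lower. Their share of all normalised counts was 4.76% and 6.78% in BL+Kyn roots, against 8.84% and 8.55% in mock roots. The median was -0.84 in BL+Kyn replicate 1, where 200 members lay below the mock mean, and -0.35 in replicate 2, where 192 did. Without BL+Kyn replicate 1, 75 were lower and 2 higher, and without mock replicate 1, 106 were lower and 4 higher. The 4 called higher all carry the annotation L18ae family, among them AT1G53560 with 863 and 603 normalised counts in BL+Kyn roots, against 333 and 265 in mock roots (log2 1.28, adjusted p = 4.86e-05 in limma). Reads may be split where members of this family are close copies of each other, which was not tested. The list is not limited to cytosolic ribosomes, since part of it encodes proteins of organelle ribosomes. Its counts and the promoter shares below cover both kinds together.

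The 3 lower genes with the smallest p-values are shown with the 250 bases before their annotated start, because the list moved together and such genes share known promoter words in plants. AT4G18100, annotated as protein L32e of the large subunit, had 3508 and 4176 normalised counts in BL+Kyn roots, against 8424 and 9605 in mock roots (log2 -1.23 ± 0.12 SE, adjusted p = 1.49e-06 in limma). AT1G74270, of the L35Ae family, had 4789 and 5097 in BL+Kyn roots, against 7384 and 7498 in mock roots (log2 -0.59 ± 0.09). RPL24A (AT2G36620), protein L24 of the large subunit, had 2501 and 3696 in BL+Kyn roots, against 5946 and 5714 in mock roots (log2 -0.94 ± 0.14). The sequences are from RefSeq TAIR10.1, all on the minus strand, 5′ to 3′ towards the start, at chr4:10036648-10036897, chr1:27929538-27929787 and chr2:15352014-15352263; capitals mark the site II words TGGGCC and TGGGCT, which read GGCCCA and AGCCCA on the complementary strand and can share bases where they lie side by side.
AT4G18100: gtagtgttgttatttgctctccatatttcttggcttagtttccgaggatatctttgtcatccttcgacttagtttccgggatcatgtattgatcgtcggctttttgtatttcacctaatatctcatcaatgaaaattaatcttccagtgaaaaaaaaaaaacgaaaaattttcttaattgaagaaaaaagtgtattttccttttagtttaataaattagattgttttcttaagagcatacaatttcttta
AT1G74270: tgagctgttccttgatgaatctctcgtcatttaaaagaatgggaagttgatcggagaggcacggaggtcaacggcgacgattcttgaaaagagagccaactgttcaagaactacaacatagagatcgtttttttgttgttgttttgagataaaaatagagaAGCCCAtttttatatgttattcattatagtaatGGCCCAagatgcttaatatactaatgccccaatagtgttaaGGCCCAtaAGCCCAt
RPL24A: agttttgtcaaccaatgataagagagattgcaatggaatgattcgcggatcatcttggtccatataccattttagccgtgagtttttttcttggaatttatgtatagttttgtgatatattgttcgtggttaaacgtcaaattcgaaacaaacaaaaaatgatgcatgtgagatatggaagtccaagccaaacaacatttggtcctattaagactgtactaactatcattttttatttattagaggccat
Site II words stand only in the AT1G74270 promoter, which holds 2 of each, and none of the 3 holds the telo box AAACCCTA. Over both strands, TGGGCC stood in 51.9% and TGGGCT in 41.7% of the 216 tested ribosomal promoters, against 16.8% and 14.5% of all 18631 tested genes with a promoter, and the telo box in 16.7%, against 3.59%. Among ribosomal genes called lower, 55.9% held TGGGCC and 42.9% TGGGCT, against 22 and 21 of the 55 not called lower. The telo box stood in 15.5% of those called lower, against 11 of the 55 not called lower. These are matches of letters, counted without a test.

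Cell wall genes outside hairs changed in both directions. For the counts below, 12.2% of all genes tested were higher and 11.2% lower. All 14 genes of xyloglucan endotransglucosylases (XTH) outside hairs, enzymes that cut and rejoin wall xyloglucan, were called, 7 higher and 7 lower, and 9 calls were kept without each of the 4 libraries. The count lower was 4 without BL+Kyn replicate 1, mock replicate 1 or mock replicate 2. XTH22 (TCH4), a touch- and brassinosteroid-responsive member, had 44.3 and 95.7 normalised counts in BL+Kyn roots, against 6.13 and 5.66 in mock roots (log2 3.26 ± 0.53 SE, adjusted p = 0.000301 in limma). XTR6 (XTH23) had 1236 and 1595 in BL+Kyn roots, against 155 and 251 in mock roots (log2 2.83). XTH24 had 1003 and 1299 in BL+Kyn roots, against 295 and 291 in mock roots (log2 1.96). XTH31 had 7146 and 25306 in BL+Kyn roots, against 2023 and 2951 in mock roots (log2 2.46), with replicate 2 far above replicate 1. On the other side, XTH15 had 1682 and 1083 in BL+Kyn roots, against 3187 and 3249.6 in mock roots (log2 -1.25). XTH16 had 146 and 237 in BL+Kyn roots, against 524 and 464 in mock roots (log2 -1.40). XTH9 fell by 1.18. The expansin EXPA8 had 533 and 343 in BL+Kyn roots, against 120.3 and 71.3 in mock roots (log2 2.19 ± 0.33). EXPA1 had 577 and 666 in BL+Kyn roots, against 194 and 212 in mock roots (log2 1.61). EXPA15 was lower, with 287 and 318 in BL+Kyn roots, against 536 and 529.5 in mock roots. Of 9 tested expansins outside hairs 3 were higher and 1 lower, and the third rise, EXPA17 (log2 1.28), lost its call without BL+Kyn replicate 1 (adjusted p = 0.36) or mock replicate 1 (0.129). In the list of primary wall cellulose synthesis 2 of 8 genes were higher and 0 lower: CESA2, a synthase subunit, had 4091 and 4714 in BL+Kyn roots, against 2848 and 3134 in mock roots (log2 0.56). The endoglucanase KORRIGAN (GH9A1) had 3058 and 2847 in BL+Kyn roots, against 2051 and 2071 in mock roots (log2 0.52).

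Aquaporins differed between the BL+Kyn replicates. Of 12 genes 5 (41.7%) were higher and 1 (8.3%) lower, against 12.2% higher and 11.2% lower among all genes tested. The median was 1.36 above the mock mean in BL+Kyn replicate 1 and -0.02 in replicate 2. Without BL+Kyn replicate 1, 1 was higher and 2 lower, without BL+Kyn replicate 2, 9 were higher and 1 lower, and without mock replicate 1, as without mock replicate 2, 1 was higher and 1 lower. PIP1;1 (PIP1A), a plasma membrane water channel, had 109134 and 29309.7 normalised counts in BL+Kyn roots, against 27265 and 22989 in mock roots, and its call (log2 1.18) ended without BL+Kyn replicate 1 (adjusted p = 0.498), mock replicate 1 (0.0602) or mock replicate 2 (0.12). The tonoplast channel TIP2;2 was high in both, with 45835 and 21312 in BL+Kyn roots, against 9244 and 8908 in mock roots (log2 1.78 ± 0.23 SE, adjusted p = 3.55e-05 in limma), and TIP2;1 (DELTA-TIP) was lower, with 8377 and 8475 in BL+Kyn roots, against 15209 and 11751 in mock roots (log2 -0.67). These 2 calls were kept without each of the 4 libraries.

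In the endodermis, suberin genes were higher, and Casparian strip genes were higher mainly in replicate 1. Of 13 suberin genes 8 (61.5%) were higher and 0 lower, where 12.2% of all genes tested were higher. The median log2 difference was 1.33, and the medians were 0.92 in BL+Kyn replicate 1 and 1.57 in replicate 2. CYP86A1 (AT5G58860; chromosome 5, 23765814 to 23768049), the fatty acid hydroxylase of suberin monomers, had 1644 and 6097 normalised counts in BL+Kyn roots, against 279.6 and 406 in mock roots (log2 difference 3.23 ± 0.57 SE, adjusted p = 0.000564 in limma). FAR4, which makes fatty alcohols, had 383 and 703 in BL+Kyn roots, against 133 and 157 in mock roots (log2 1.84). ASFT (RWP1), the feruloyl transferase, had 498 and 546 in BL+Kyn roots, against 263 and 264 in mock roots (log2 0.98). The calls of these 3 were kept without each of the 4 libraries, whereas GPAT5, an acyltransferase, with 187 and 394 in BL+Kyn roots, against 74.6 and 76.9 in mock roots, lost its call without BL+Kyn replicate 2 (adjusted p = 0.0965), mock replicate 1 (0.0643) or mock replicate 2 (0.0538). The suberin count was 7 without BL+Kyn replicate 1, 4 without BL+Kyn replicate 2, and 3 and 5 without mock replicate 1 and mock replicate 2.

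Of 10 Casparian strip genes 5 (50%) were higher and 0 lower, where 12.2% of all genes tested were higher. However, the medians were 1.00 in BL+Kyn replicate 1 and 0.21 in replicate 2. Without BL+Kyn replicate 1, 0 were higher and 1 lower, and without BL+Kyn replicate 2 all 10 were higher; without mock replicate 1 and mock replicate 2 the counts were 3 and 1 higher. MYB36, the transcription factor that switches the strip on, had 420 and 322 normalised counts in BL+Kyn roots, against 217 and 195 in mock roots (log2 0.84, adjusted p = 0.00453 in limma), and its call ended without BL+Kyn replicate 1 (adjusted p = 0.0724). CASP1, a scaffold protein of the strip, had 7761 and 4535 in BL+Kyn roots, against 4057 and 3579 in mock roots (log2 0.64), a call that ended without BL+Kyn replicate 1 (adjusted p = 0.363) or mock replicate 2 (0.128). CASP5 was not called and had 1949 and 219 in BL+Kyn roots, against 1060 and 614 in mock roots, its replicates lying on opposite sides of mock. In the vascular lists, SMXL5, a phloem factor, had 404 and 487 in BL+Kyn roots, against 188 and 193 in mock roots (log2 1.21). XCP1, a xylem protease, had 828 and 957 in BL+Kyn roots, against 598 and 444 in mock roots (log2 0.79), a call that ended without mock replicate 2 (adjusted p = 0.0815). Of 11 tested xylem and 7 tested phloem genes 2 each were higher and 0 lower, where 12.2% of all genes tested were higher. The xylem count was 1 without BL+Kyn replicate 1 and 0 without mock replicate 2, and the XCP2 call ended without BL+Kyn replicate 1 (adjusted p = 0.323) or mock replicate 2 (0.351). The phloem count was 1 without BL+Kyn replicate 1 or mock replicate 1, as the call of APL ended without BL+Kyn replicate 1 (adjusted p = 0.133) or mock replicate 1 (0.169). Of 5 root cap genes 1 was higher and 1 lower: FEZ, which promotes root cap stem cell division, gave 2 reads in BL+Kyn roots and 30 in mock roots, a ratio of 0.108 (95% counting interval 0.0126 to 0.427), and NAC070 (BRN2) was higher by 0.79. The FEZ call ended without each of the 4 libraries in turn (adjusted p = 0.053 to 0.157), and that of NAC070 without BL+Kyn replicate 1 (adjusted p = 0.363), mock replicate 1 (0.0702) or mock replicate 2 (0.29).

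FIT (FRU), the master regulator of iron uptake, had 7751 and 6011 normalised counts in BL+Kyn roots, against 1538 and 2092 in mock roots (log2 1.93 ± 0.26 SE, adjusted p = 4.22e-05 in limma). The proton pump AHA2 (HA2) had 17184 and 22110.5 in BL+Kyn roots, against 9156 and 9726 in mock roots (log2 1.05). The ferric reductase gene FRO2 was not called at 24.8 and 30.5 in BL+Kyn roots, against 14.5 and 12.4 in mock roots. Of 10 tested iron genes 3 were higher and 0 lower, and PYE (log2 0.61) lost its call without BL+Kyn replicate 2 (adjusted p = 0.0501) or mock replicate 2 (0.0527). The chaperone gene HSP70 (AT3G12580) had 1590.5 and 1589 in BL+Kyn roots, against 530.3 and 608 in mock roots (log2 1.48), and 2 of 6 tested heat-shock genes were higher and 0 lower, where 12.2% of all genes tested were higher. The heat-shock count was 1 without BL+Kyn replicate 1, and the HSP101 call ended without BL+Kyn replicate 1 (adjusted p = 0.0945) or mock replicate 1 (0.114). Of 8 tested genes of salicylate, immunity and camalexin 4 were higher and 1 lower, and 1 of these 5 calls was kept without each of the 4 libraries. The count higher was 1 without mock replicate 1 and 2 without mock replicate 2. The PAD3 call ended without BL+Kyn replicate 2 (adjusted p = 0.375), mock replicate 1 (0.164) or mock replicate 2 (0.102), that of EDS1 without BL+Kyn replicate 1 (adjusted p = 0.234), mock replicate 1 (0.131) or mock replicate 2 (0.14) and that of WRKY70, the lower gene, without BL+Kyn replicate 1 (adjusted p = 0.291), mock replicate 1 (0.174) or mock replicate 2 (0.125). Besides FMO1, PAD4, a lipase-like immune regulator, had 138 and 144 in BL+Kyn roots, against 73.5 and 79.2 in mock roots (log2 0.88), and lost its call without mock replicate 1 (adjusted p = 0.0758). PR1, PR2 (BGL2) and PR5, classical markers of salicylate response, had 0 reads in all 4 libraries, which allows up to 3.24 and 4.16 normalised counts in BL+Kyn roots and up to 1.67 and 3.39 in mock roots (3 reads a library, counting error only). Of 10 tested genes of senescence and sugar starvation 6 were higher and 0 lower, and 0 were higher without BL+Kyn replicate 1, 2 without mock replicate 1 and 3 without mock replicate 2. SEN1 had 512 and 52.7 in BL+Kyn roots, against 41.8 and 11.3 in mock roots. The asparagine synthetase ASN1 had 433 and 115 in BL+Kyn roots, against 66.3 and 29.4 in mock roots. The SEN1 call ended without BL+Kyn replicate 1 (adjusted p = 0.419) or mock replicate 2 (0.234), the ASN1 call without BL+Kyn replicate 1 (adjusted p = 0.151) or mock replicate 2 (0.0931). Of 8 flavonoid genes 0 were called. Among tested genes 30% of the iron, 50% of the salicylate and 60% of the senescence list were higher, against 12.2% of all genes tested. In the salicylate list 12.5% were lower, against 11.2% of all genes tested.

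Fewer genes differed between the responses at 48 h and 24 h than between those at 48 h and 12 h. At 12 h, BL+Kyn roots had 952 genes called against their own mock, 5.02% of genes tested (2.55% higher, 2.47% lower), and at 24 h 9.63% were higher and 8.61% lower. No library is shared between the times, but the test of each gene used the same spread at every time. Of the 1825 genes called higher at 24 h 1191 (65.3%) were also called higher at 48 h, against 12.2% of all genes tested. Of the 1632 called lower 1100 (67.4%) were also called lower, against 11.2% of all genes tested. A test of the difference between the response at 48 h and that at 24 h called 10 genes, 0.0528% of those tested (0.0158% higher, 0.0369% lower). The difference from 12 h called 483, or 2.55% (1.75% higher, 0.797% lower). These were 332 higher and 151 lower, and 267 higher and 224 lower after centring on the median gene. The first count ranged from 0 to 147 and the second from 129 to 2106 when single libraries of the contrast were left out. Without BL+Kyn 48 h replicate 1 the first count was 147. Without BL+Kyn 48 h replicate 2 the first was 146 and the second 2106.

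**Figure D4:**
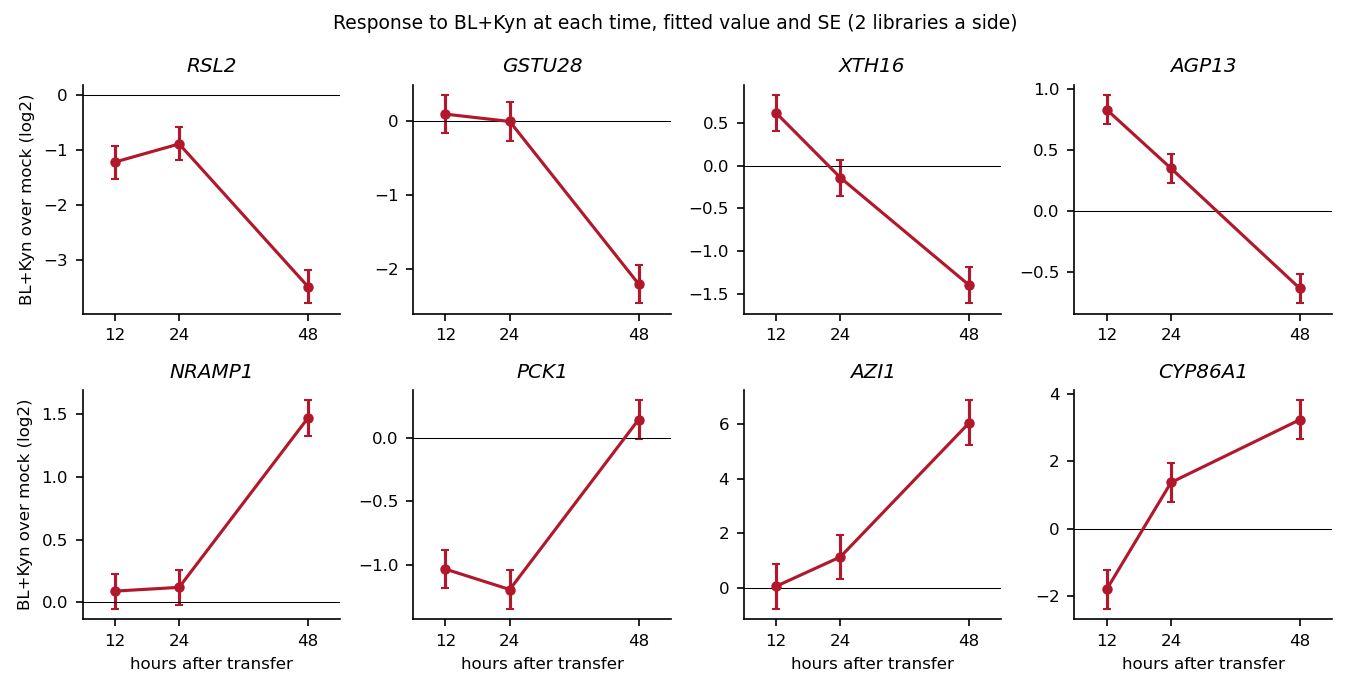
Fitted log2 difference between BL+Kyn and mock roots at 12, 24 and 48 h (points, with SE bars) for 8 genes. RSL2 lies at -3.48 at 48 h, GSTU28 lies near 0 until 24 h and at -2.20 at 48 h, and AZI1 reaches 6.06 at 48 h.

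RSL2 lay further below mock at 48 h than at 24 h. Its counts were 153 and 133 in BL+Kyn roots, against 371 and 299.9 in mock roots at 12 h, 118 and 140.3 in BL+Kyn roots, against 251 and 228 in mock roots at 24 h, and 21.6 and 55.5 in BL+Kyn roots, against 412 and 384 in mock roots at 48 h. The log2 response at 48 h minus that at 24 h was -2.59 ± 0.43 SE (adjusted p = 0.0254 in limma). GSTU28, a glutathione transferase, was not called at 24 h (70.8 and 89.3 in BL+Kyn roots, against 85.4 and 74.2 in mock roots; adjusted p = 0.997) and had 17.3 and 34.7 in BL+Kyn roots, against 124 and 109.8 in mock roots at 48 h. AGP13, a short arabinogalactan protein, had 7414 and 7908 in BL+Kyn roots, against 6114 and 5887 in mock roots at 24 h, and 5176 and 5518 in BL+Kyn roots, against 8396 and 8203 in mock roots at 48 h. NRAMP1, a manganese and iron transporter, went the other way, with 527 and 523 in BL+Kyn roots, against 459 and 511 in mock roots at 24 h. At 48 h it had 1356 and 1040.1 in BL+Kyn roots, against 462 and 396 in mock roots (difference 1.35 ± 0.20, adjusted p = 0.0223). PCK1, a key enzyme of gluconeogenesis, was lower in BL+Kyn roots at 24 h (763 and 665 in BL+Kyn roots, against 1510.2 and 1763 in mock roots) and not called at 48 h (1684 and 1366 in BL+Kyn roots, against 1369.6 and 1392 in mock roots; adjusted p = 0.556). Each of these 5 calls ended without BL+Kyn 24 h replicate 1 and without BL+Kyn 24 h replicate 2, mock 24 h replicate 2 or mock 48 h replicate 2, with adjusted p-values between 0.0586 and 0.296 over all libraries whose removal ended a call. Besides these 2 rises and 3 falls, the 10 called genes held 1 rise and 4 falls in genes without a symbol in the reference.

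Of 13 suberin genes 6 had a higher response at 48 h than at 12 h, where 1.75% of all genes tested did. The count was 3 without mock 12 h replicate 2 or mock 48 h replicate 1, 4 without BL+Kyn 12 h replicate 2, and 5 or 6 without each other library of the contrast. At 12 h 0 suberin genes were higher and 3 lower, with a median of -0.67. At 24 h 6 were higher and 0 lower, with a median of 0.89. Among all genes tested 2.55% were higher and 2.47% lower at 12 h, and 9.63% higher and 8.61% lower at 24 h. CYP86A1 had 66.8 and 47.4 normalised counts in BL+Kyn roots, against 166 and 238 in mock roots at 12 h, where it was not called (adjusted p = 0.0789 in limma). At 48 h it had 1644 and 6097 in BL+Kyn roots, against 279.6 and 406 in mock roots, a difference between responses of 5.03 ± 0.80 (adjusted p = 0.00383). ABCG2, a transporter of the suberin barrier, had 4.82 and 8.97 in BL+Kyn roots, against 47.6 and 66.1 in mock roots at 12 h, and 119 and 315 in BL+Kyn roots, against 68.5 and 65.6 in mock roots at 48 h (difference 4.42 ± 0.61, adjusted p = 0.00175). AZI1 was at 954 and 613 in BL+Kyn roots, against 536 and 998 in mock roots at 12 h (log2 0.06, adjusted p = 0.982), and the difference between responses was 6.0 ± 1.16 (adjusted p = 0.00926, and 0.0531 without mock 12 h replicate 2). Of the 216 tested ribosomal protein genes 4 were lower and 2 higher at 12 h (median -0.19), shares no larger than those of all genes tested. At 24 h 152 of them were lower and 4 higher (median -0.54). In the root hair list 14 of 16 genes were already lower at 12 h, with medians of -2.27, -2.48 and -3.11 at 12, 24 and 48 h. XTH16 had 556 and 522 in BL+Kyn roots, against 332 and 369.8 in mock roots at 12 h and was lower at 48 h, a difference between responses of -2.02 ± 0.29 (adjusted p = 0.00211).

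**Figure D5:**
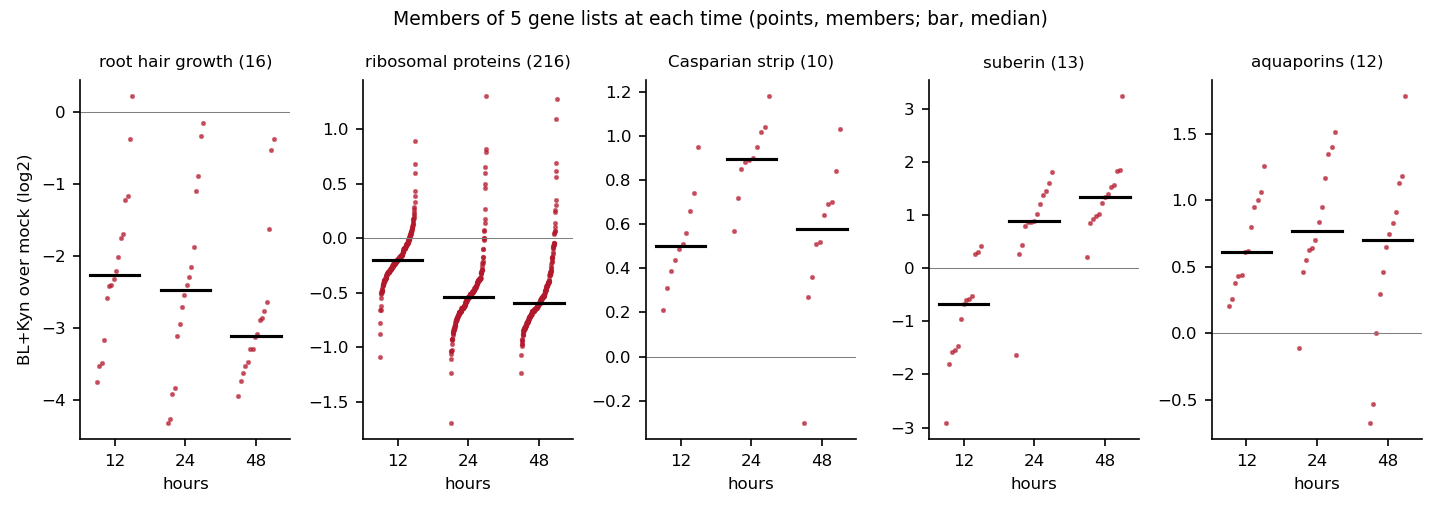
Fitted log2 difference between BL+Kyn and mock roots of each tested member of 5 gene lists (points, in order of value) at 12, 24 and 48 h, with the list median as a bar. Root hair genes lie at medians of -2.27, -2.48 and -3.11, suberin genes at -0.67, 0.89 and 1.33, and ribosomal protein genes at -0.19, -0.54 and -0.59.

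Fewer genes were called with either compound alone than with both at 48 h. Against the same mock libraries, which all 3 comparisons share, Kyn roots had 222 genes called, 1.17% of those tested (0.237% higher, 0.934% lower), and BL roots 41, or 0.216% (0.116% higher, 0.1% lower). In the root hair list 14 of 16 genes were lower in BL+Kyn roots, 11 in Kyn roots and 0 in BL roots, with medians of -3.11, -1.53 and 0.07. In the ribosomal list 161 of 216 genes were lower in BL+Kyn roots, 0 in Kyn roots and 1 in BL roots, with medians of -0.59, 0.05 and -0.06. PLT2 had 28.1 and 29.1 normalised counts in BL+Kyn roots, 125 and 98.7 in Kyn roots and 113 and 86.7 in BL roots, against 101 and 106 in mock roots. IAA31 had 11.9 and 11.1 in BL+Kyn roots, 25.9 and 14.6 in Kyn roots and 170 and 81.0 in BL roots, against 157 and 171 in mock roots. CYP86A1 had 1644 and 6097 in BL+Kyn roots, 410.1 and 947 in Kyn roots and 2000.2 and 867 in BL roots, against 279.6 and 406 in mock roots. Against mock its adjusted p was 0.000564 in BL+Kyn roots, 0.804 in Kyn roots and 0.22 in BL roots in limma.

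Departure from the sum of both single log2 responses was tested directly and called 161 genes, 79 higher and 82 lower than that sum, or 0.85% of those tested (0.417% higher, 0.433% lower). The count ranged from 10 without mock replicate 2 to 2839 without BL+Kyn replicate 2, and fell below 161 without each other library of the contrast. It was 15 without Kyn replicate 2, 31 without mock replicate 1, 38 without Kyn replicate 1, 47 without BL replicate 2, 62 without BL+Kyn replicate 1 and 110 without BL replicate 1. RSL2 had 21.6 and 55.5 normalised counts in BL+Kyn roots, 387 and 374 in Kyn roots and 319.6 and 292 in BL roots, against 412 and 384 in mock roots. It lay -3.04 ± 0.43 SE from the sum (adjusted p = 0.00443 in limma), a call kept without each of the 8 libraries. LRL3, a related hair factor, had 129.6 and 175 in BL+Kyn roots, 624 and 743 in Kyn roots and 983 and 997 in BL roots, against 813 and 788 in mock roots (-2.48 ± 0.32, adjusted p = 0.00355). EXPA7, XTH14 and ADF8 of the hair list also lay below the sum (adjusted p = 0.0242, 0.0483 and 0.0351), and 10 of the 16 hair genes did without BL+Kyn replicate 2. CYP78A5, a P450 of organ growth, was high with L-kynurenine and less so with both, at 229 and 86.0 in BL+Kyn roots, 331 and 459.7 in Kyn roots and 21.6 and 11.3 in BL roots, against 8.35 and 5.66 in mock roots (-2.55 ± 0.52, adjusted p = 0.0317). TAA1 lay below the sum as well, with 17.3 and 16.6 in BL+Kyn roots, 37.6 and 51.8 in Kyn roots and 74.8 and 73.5 in BL roots, against 59.0 and 62.2 in mock roots (-1.62, adjusted p = 0.0483), as did PLT2 (-1.85, adjusted p = 0.0312).

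Above the sum, EXPA8 had 533 and 343 normalised counts in BL+Kyn roots, 84.6 and 144 in Kyn roots and 81.2 and 90.5 in BL roots, against 120.3 and 71.3 in mock roots (2.05, adjusted p = 0.0462 in limma). MAKR4, a membrane-associated kinase regulator of lateral root spacing, had 65.9 and 62.4 in BL+Kyn roots, 14.1 and 9.71 in Kyn roots and 44.4 and 18.9 in BL roots, against 49.6 and 43.0 in mock roots (3.01 ± 0.58, adjusted p = 0.0283). RTM3, known for restricting virus movement, had 91.8 and 103 in BL+Kyn roots, 16.4 and 14.6 in Kyn roots and 17.8 and 20.7 in BL roots, against 27.9 and 24.9 in mock roots (3.01 ± 0.62). ADF5, an actin-binding protein, had 153 and 158 in BL+Kyn roots, 43.5 and 43.7 in Kyn roots and 54.5 and 35.8 in BL roots, against 78.0 and 46.4 in mock roots (2.25 ± 0.50). These 4 genes were highest in BL+Kyn roots in both replicates, though MAKR4 was not called against mock. Apart from RSL2 and LRL3, each call named here for the departure from the sum ended without at least 5 of the 8 libraries taken out in turn, both mock libraries among them, with adjusted p-values between 0.051 and 0.162. The lectin gene JAL22, given below, lay above the sum and yet below both mock libraries in both BL+Kyn libraries.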

How the data were processed

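Each of 24 root libraries was sequenced by CEL-Seq2. The submitters' processing notes list HTSeq 0.6.1, DESeq2, TopHat2 2.1.0, FastQC 0.11.5, cutadapt 1.10 and Trim Galore, with the build TAIR10, and do not say here how each was used. Molecular-tag collapse and strand are not given in the sources used here. The authors deposited 1 normalised signal per feature and library, per the file headers normalised counts. Dividing each library by its smallest step gave whole reads for 100% of values (within 0.1), with 6322167 to 31365110 reads a library. The authors also deposited a table of log2 fold changes and adjusted p-values, used only to count genes called in both. Of the feature IDs 32940 matched a RefSeq TAIR10.1 gene, and 99.98% of these overlapped it.

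Values were tested as log2(normalised count + 1) with limma-trend 3.58.1 in R 4.3.3 on genes with a mean of at least 5 over 24 libraries, as 12 group means with 12 residual degrees of freedom. The fit was tested on simulated counts: of 40 genes each, it called 33 at 4-fold, 17 at 2-fold and 4 at 1.5-fold higher in the comparison with mock, over 18948 genes. The simulation gave all libraries the same spread for each gene. It did not hold the wider spread of BL+Kyn at 48 h, so these rates do not describe that pair. Alternatives were edgeR 4.0.16 and DESeq2 1.42.0 on the recovered reads, other pseudocounts, filters and scalings, a replicate block, array weights, smaller fits and the removal of single libraries. With 2 libraries a group, no exact test of single values can pass 0.05. The p-values and SE values rest on a spread between replicates shared by all 24 libraries, which may be technical in part. The BL+Kyn replicates at 48 h had a standard deviation of 0.592, against 0.284 to 0.5 in the other pairs. The shared spread can therefore understate that of this group. With array weights, which allow for such differences, 2197 genes were called against mock in place of 4435. Intervals and read floors cover counting error only.

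Genes were named by rule. For the comparison with mock, these were the 12 largest rises and falls among called genes with a symbol, a mean of at least 20 and groups that do not overlap, and up to 4 called members a list by smallest p. For each difference between responses, the 5 largest in each direction were taken. For replicate 1 against 2 they were the 6 highest and lowest with a symbol and a mean of at least 50. Their mock libraries also had to differ by less than 0.5 on the log2 scale. Key genes were given as well, apart from items that are not reported here. The members and the 32 gene lists were chosen with earlier results of these data known.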

Additional observations from a re-analysis of the deposited data

Results flagged for a closer look

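Differences between responses were tested in the limma fit over all 24 libraries and called 10 genes between 48 h and 24 h, 483 between 48 h and 12 h, and 161 between BL+Kyn at 48 h and the sum of both single responses. Values are log2 differences between responses, each with an adjusted p below 0.05 in limma.

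Between 48 h and 24 h, NRAMP1 (1.35) and PCK1 (1.33) were higher and RSL2 (-2.59), GSTU28 (-2.20) and AGP13 (-0.99) lower. The other 5 called genes have no symbol and were picked out after their values were seen: the non-coding locus At3NC007630 (3.79) was higher, and AT1G50060.1-Protein (-2.14), AT3G50120 (-1.95), AT1G62510 (-1.88) and AT2G41970 (-1.27) were lower. Each of the 10 calls ended without 3 to 6 of the 8 libraries of the contrast, with adjusted p-values from 0.0586 to 0.309.

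Between 48 h and 12 h, the largest positive differences were in AZI1 (6.0), the suberin genes CYP86A1 (5.03) and ABCG2 (4.42), the protein kinase gene SNRK2-8 (4.48), and PDF2.1 (4.30), a plant defensin. SNRK2-8 had 635 and 79.0 normalised counts in BL+Kyn roots, against 15.0 and 19.2 in mock roots at 48 h. Its call ended without BL+Kyn 48 h replicate 1 (adjusted p = 0.0561). The largest negative differences were in CER1 (-3.00), a wax synthesis gene, GSTU28 (-2.31), RSL2 (-2.26), the galactolipid synthase gene MGD2 (-2.08) and XTH16 (-2.02). CER1 had 4.32 and 18.03 in BL+Kyn roots, against 99.14 and 100.70 in mock roots at 48 h. The calls of CYP86A1, ABCG2, GSTU28, RSL2 and XTH16 were kept without each of the 8 libraries of the contrast, and that of AZI1 ended without mock 12 h replicate 2 alone (adjusted p = 0.0531). Those of SNRK2-8, PDF2.1, CER1 and MGD2 ended without 6, 3, 7 and 7 of the 8 libraries, with adjusted p-values from 0.0511 to 0.137.

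Against the sum of both single responses, RTM3 (3.01), MAKR4 (3.01), the jacalin-related lectin JAL22 (2.39), the phloem lectin PP2-A1 (2.36) and ADF5 (2.25) lay above, and RSL2 (-3.04), CYP78A5 (-2.55), LRL3 (-2.48), the chaperone gene Hsp70b (-2.36) and EXPA7 (-2.32) below. JAL22 had 340.1 and 397 normalised counts in BL+Kyn roots, 203 and 254 in Kyn roots and 166 and 239 in BL roots, against 764 and 552 in mock roots. PP2-A1 had 518 and 164 in BL+Kyn roots, 70.5 and 50.2 in Kyn roots and 112 and 82.9 in BL roots, against 96.9 and 107 in mock roots. Hsp70b had 48.6 and 23.6 in BL+Kyn roots, 75.2 and 55.0 in Kyn roots and 72.3 and 94.2 in BL roots, against 30.6 and 28.3 in mock roots. RSL2 and LRL3 kept their calls without each of the 8 libraries. Those of the other 8 genes ended without 5 to 7 of them, with adjusted p-values from 0.051 to 0.147.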

How the results depend on the processing

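The 4435 calls against mock numbered 4094 to 4728 under another tool, pseudocount, filter or scaling. They fell to 2197 with array weights, which gave BL+Kyn at 48 h the lowest weight (0.344), to 1958 in a fit of the 8 libraries of 48 h and to 550 in a fit of the 4 libraries, which has fewer samples to estimate the spread. Leaving out single libraries gave 2222 to 5848. For the difference from 24 h (10), DESeq2 called 81, edgeR 10, array weights 0 (1033 at an unadjusted p below 0.05) and no filter 3. Single libraries left out gave 0 to 147, with 0 without BL+Kyn 24 h replicate 2 or mock 48 h replicate 2 (1024 and 1133 at an unadjusted p below 0.05 in limma). For the difference from 12 h (483), DESeq2 called 810 and array weights 192, and single libraries left out gave 129 to 2106; median centring moved its split of 332 higher and 151 lower to 267 and 224. For the departure from the sum (161), DESeq2 called 658, array weights 4, no filter 87 and the fit of the 8 libraries 1, and single libraries left out gave 10 to 2839. The cause of these shifts was not tested, except that smaller fits hold fewer samples.

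Of the single genes none changed sign with its call under any alternative run, but the split against mock did: it was 2179 higher and 2278 lower with TMM scaling and 1899 and 2829 with median centring, in place of 2305 and 2130. Aquaporins had 1 higher and 2 lower and Casparian strip genes 0 and 1 without BL+Kyn replicate 1. Of 153 called values of single genes 49 were kept under every alternative run, and 2201 of 2655 alternative values kept their call and 454 lost it. Of 123 called against mock at 48 h, 76 were kept without each of the 4 libraries. Calls ended in 57 with array weights, 75 with the 4 libraries alone, 42 with those of 48 h, 27 with no filter, 4 with median centring and 3 with DESeq2. Without both libraries of 12 h that stood out in green-tissue transcripts, an alternative chosen after seeing the data like the list counts without each library, the counts were 4306, 12, 449 and 115. Median list signs that changed with scaling were those of early auxin response, auxin synthesis, root cap and flavonoid genes, all between -0.08 and 0.08.

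Same-numbered libraries were not paired by the labels, and the correlation of their deviations was 0.09 between BL+Kyn and mock at 48 h and -0.229 to 0.646 over 66 pairs of groups, with 22 over 0.1. Of 24 libraries 18 lay closest to one of the same number, a hint from the data and not from the design. With the replicate block the counts were 4624, 12, 610 and 231, and NAC070 lost its call (adjusted p = 0.0505). Depth limits the genes near the floor of 3 reads most.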

Other observations

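Genes of jasmonate and of abscisic acid were called at about the rate of all genes tested, of which 12.2% were higher and 11.2% lower in BL+Kyn roots at 48 h. Of 9 jasmonate genes 7 were tested, 1 was higher and 1 lower, or 14.3% each (median log2 0.21, against 0.01 over all genes tested). The repressor gene JAZ1 had 879 and 859.9 normalised counts in BL+Kyn roots, against 587 and 639 in mock roots (log2 0.50 ± 0.14 SE, adjusted p = 0.0162 in limma), a call that ended without BL+Kyn replicate 1 (adjusted p = 0.0778) or mock replicate 1 (0.118). VSP1, a vegetative storage protein induced by jasmonate, had 31.3 and 44.4 in BL+Kyn roots, against 206 and 138 in mock roots (log2 -2.15 ± 0.43 SE, adjusted p = 0.00153 in limma). The related VSP2 was not called (log2 -3.09, adjusted p = 0.109 in limma), with 0 and 12.5 in BL+Kyn roots, against 27.9 and 32.8 in mock roots.

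Of 12 genes of abscisic acid and water deficit 10 were tested, 1 was higher and 1 lower (median log2 0.20). LTI78 (RD29A), a stress-induced gene, had 583 and 1099.8 in BL+Kyn roots, against 338 and 500.1 in mock roots (log2 0.96, adjusted p = 0.024 in limma). P5CS1, an enzyme of proline synthesis, had 490.2 and 389.7 in BL+Kyn roots, against 613 and 611 in mock roots (log2 -0.48, adjusted p = 0.0471 in limma). The LTI78 call ended without BL+Kyn replicate 2 (adjusted p = 0.244) or mock replicate 1 (0.226), and that of P5CS1 without BL+Kyn replicate 2 (adjusted p = 0.242), mock replicate 1 (0.157) or mock replicate 2 (0.148). NCED3, which makes a precursor of abscisic acid, was not called (log2 -0.13, adjusted p = 0.899 in limma).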
